A study of Caenorhabditis elegans with 35 samples.

Results

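A pair of changes to a dauer-prone animal were set against each other: loss of dpy-21, which encodes a subunit of the dosage compensation complex, and loss of daf-12, which encodes a nuclear hormone receptor. The comparison used 10 of the 35 RNA-seq libraries of the series, 5 from eak-7;akt-1 dpy-21 animals and 5 from eak-7;akt-1;daf-12 animals, called the dpy-21 and daf-12 libraries below. Both groups carried the eak-7 and akt-1 mutations, so that the animals differed by which of dpy-21 and daf-12 was mutated, and the eak-7;akt-1 parent did not enter the test. The other 25 libraries came from wild type, eak-7;akt-1, daf-16;eak-7;akt-1 and a pair of set-4 alleles, n4600 and dp268, each in the eak-7;akt-1 background, with 5 of each. All animals were laid over 6 h at 20°C by more than 200 gravid adults, were held for 24 h at 25°C, a temperature that favours dauer arrest, and were collected as whole larvae labelled L2/L2D. A library was therefore made from RNA of many pooled larvae, and every mutation was present in the whole animal.

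Dauer is an arrested, stress-resistant alternative to a later larval stage. Insulin-like signalling through DAF-2 and the kinase AKT-1 keeps the FOXO factor DAF-16 inactive and lets larvae bypass dauer, and animals that lack both AKT-1 and EAK-7, which also restrains DAF-16, arrest as dauers. DAF-12, when bound to steroid ligands called dafachronic acids, promotes reproductive growth, and without these ligands it promotes arrest. The dosage compensation complex lowers transcription from both X chromosomes of hermaphrodites, and DPY-21 within it removes a methyl group from lysine 20 of histone H4 on X, a position that SET-4 methylates.

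Values were scaled counts, the fragments counted at a locus divided by a size factor of the library. The 10 libraries were shallow, with 34193 to 88068 recovered fragments each, of which the 10 largest loci took 34.1% to 42.4%. On the first principal component of all 35 libraries, which carried 40.2% of the variance, 9 libraries lay apart from the other 26, and these 9 included dpy-21 replicates 6 and 9 and daf-12 replicate 7. The genotypes could not be checked from the mutated genes, since dpy-21 and set-4 were listed at 0 in all 10 libraries and eak-7, akt-1, daf-12 and daf-16 had at most 3 fragments in any of them. Of 10 markers each, 7 of intestine, 5 of hypodermis, 3 of body wall muscle, 3 of pharynx, 1 of neurons and 1 of germline rose above 3 fragments in some library. Of the markers of males and sperm 8 of 10 were at 0, but so were 6 of 10 of pharynx. Zeros at this depth therefore do not show that a cell type or males were absent.

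Of 37555 loci in the table, 6365 were above 0 in the 10 libraries and 1101 passed the filter of at least 5 scaled counts in at least 5 of the 35 libraries. A locus was called when its fold change was at least 1.5 and its adjusted p was below 0.05 in a limma fit on log2(scaled count + 1). By this rule 55 loci differed between the mutants, 5.00% of those tested, with 22 higher in the dpy-21 libraries (2.0%) and 33 lower (3.0%). The 5 dpy-21 values and the 5 daf-12 values did not overlap at 49 of the 55 called loci, and at 77 of all 1101. The median difference over all loci, dpy-21 minus daf-12, was -0.17 on the log2 scale, so the split depended on the scaling. With median-of-ratios scaling the median moved by 0.10 and the split became 30 higher and 28 lower, and with TMM scaling it moved by 0.14 and the split became 33 and 28. Without the 3 libraries that lay apart, 76 loci were called, 25 higher and 51 lower, and 43 of these were among the 55. Leaving out a single library gave as few as 34 calls, without daf-12 replicate 9 or 10.

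**Figure D1:**
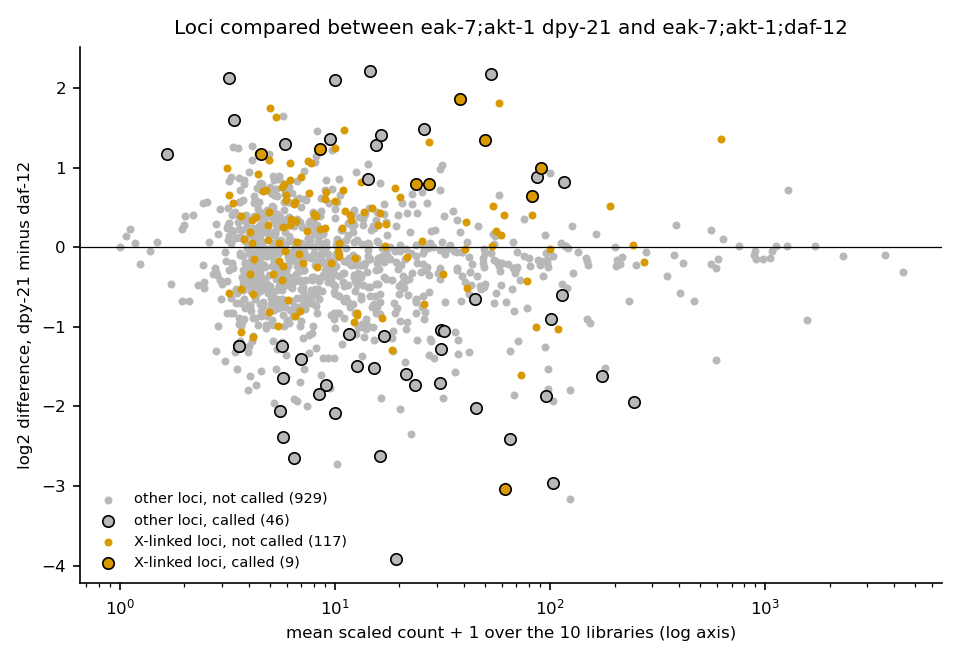
Log2 difference of each tested locus, dpy-21 minus daf-12, against its mean scaled count plus 1 over the 10 libraries on a log axis. Points are loci, gold for X-linked loci and grey for all others, and outlined points are the 55 called loci. The gold points lie mostly above 0, and 8 of the 9 called X-linked loci are higher in the dpy-21 libraries.

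X-linked loci were shifted up in the dpy-21 libraries relative to autosomal loci. Of 126 X-linked loci tested, 84 (66.7%) had a difference above 0 and the median was 0.29, against 29.8% above 0 and a median of -0.23 for 865 autosomal loci and a median of -0.17 for all loci. The gap between these medians was 0.52 on the log2 scale, and it was 0.21 when no filter on low values was applied. Of the X-linked loci 8 were called higher and 1 lower, 7.14% in all, and of the autosomal loci 9 were called higher and 27 lower, 4.16% in all. The called X-linked loci fell to 5 without daf-12 replicate 8 or dpy-21 replicate 6, 8 or 10, and rose to 14 with TMM scaling. Groups did not overlap, with the dpy-21 libraries higher, at 12 X-linked loci (9.52%) and at 11 autosomal loci (1.27%), against 29 of all loci (2.63%). They did not overlap, with the dpy-21 libraries lower, at 1 X-linked locus (0.79%) and at 43 autosomal loci (4.97%), against 48 of all loci (4.36%). In either direction these were 13 of the 126 X-linked and 54 of the 865 autosomal loci. The medians of the autosomes differed little from one another, from -0.32 on chromosome V to -0.15 on chromosome II. Their called shares varied more, with 7.64% on chromosome II (2 higher, 10 lower) and 6.83% on chromosome V (6 higher, 8 lower), near the 7.14% of X. Chromosome IV had 1.64%, and no locus of chromosome III was called among 159 tested, of which 20 were below an unadjusted p of 0.05.

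The X-linked shift was seen at every level of expression. When all tested loci were divided into 3 equal groups by their mean level over the 35 libraries, the X-linked medians were 0.27, 0.40 and 0.28 from the lowest to the highest group, and the autosomal medians were -0.29, -0.22 and -0.23. Loci with a single gene name gave 0.25 for 80 X-linked and -0.24 for 398 autosomal loci, and loci that merged several genes gave 0.40 and -0.23. Along the X chromosome (WBcel235 annotation), medians in windows of 3 Mb ran from 0.05 between 12 and 15 Mb to 0.41 between 6 and 9 Mb, where 28 of 37 loci were above 0. All 6 windows had a median above 0, and windows held 9 to 37 loci. The shift was uneven, with 5 of 9 loci above 0 between 0 and 3 Mb (median 0.07) and 11 of 21 between 12 and 15 Mb. No locus was called between 12 and 18 Mb.

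Taken library by library, the shift separated the dpy-21 from the daf-12 libraries. For a single library, the median over X-linked loci of the log2 level relative to the 10-library mean was taken, and the same median over autosomal loci was subtracted. In dpy-21 replicates 6 to 10 this value was 0.20, 0.38, 0.46, 0.24 and 0.41, and in daf-12 replicates 6 to 10 it was -0.14, -0.44, -0.10, -0.21 and -0.30. Since the reference was the mean of these same 10 libraries, the distance between the groups is informative and their signs are not. The groups did not overlap, and the 2 lowest dpy-21 values were replicates 6 and 9, the libraries that lay apart. Wild type ranged from -0.70 to -0.27, eak-7;akt-1 from -0.44 to -0.14 and daf-16;eak-7;akt-1 from -0.49 to -0.21, each overlapping the daf-12 range. The set-4(n4600) libraries ranged from -0.26 to 0.14 and the set-4(dp268) libraries from -0.01 to 0.27, so that the set-4(dp268) libraries lay above every daf-12 library and overlapped the dpy-21 range only at its lower end.

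The share of scaled counts told the same order less cleanly. X-linked loci took 6.59% to 9.21% of the counts at placed loci in the dpy-21 libraries and 3.97% to 6.54% in the daf-12 libraries, a gap of less than the spread within either group. Much of this share came from 5 abundant loci, among them spp-5, which encodes a saposin-like antimicrobial protein with means of 248 scaled counts in dpy-21 and 236 in daf-12 animals but only 2.45 in dpy-21 replicate 9 and 2.81 in daf-12 replicate 7. Without these 5 loci the shares were 3.89% to 5.71% and 2.93% to 3.86%. The ranges still did not overlap, though dpy-21 replicate 6 at 3.89% was next to daf-12 replicate 6 at 3.86%.

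**Figure D2:**
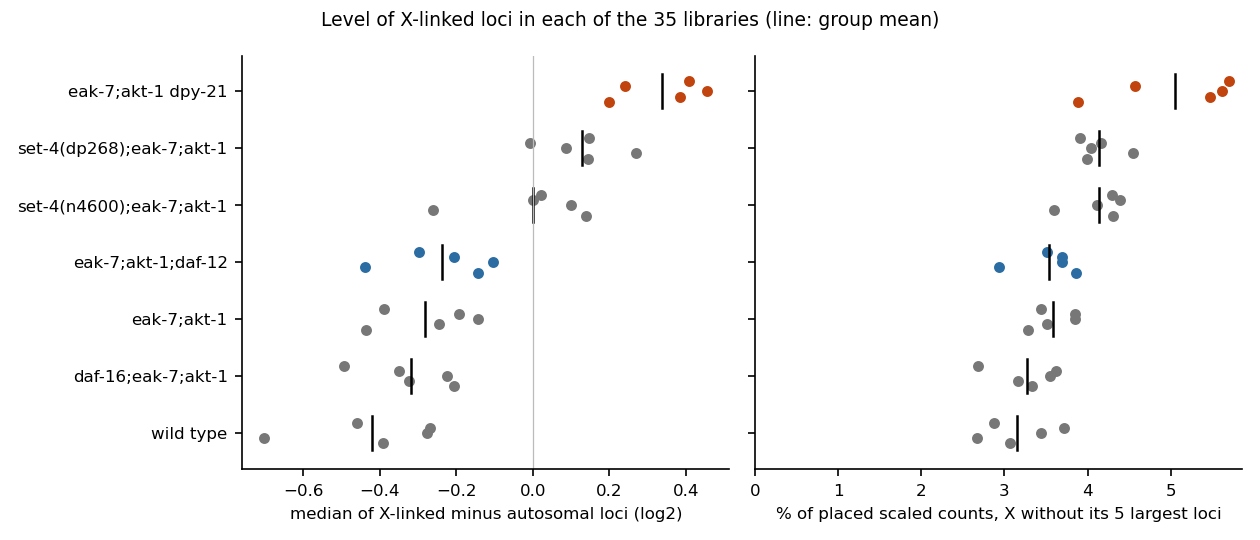
Level of X-linked loci in each of the 35 libraries, by genotype. Left, the median of X-linked loci minus that of autosomal loci on the log2 scale, relative to the mean of the 10 compared libraries, and right, the percentage of placed scaled counts at X-linked loci without the 5 largest. Points are libraries and black lines are group means. The 5 dpy-21 libraries run from 0.20 to 0.46 on the left and all 5 daf-12 libraries lie below 0.

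Among X-linked loci the smallest p belonged to F48D6.4 (X:4246554-4247212), and it went against the shift. Its scaled counts were 15.4, 6.93, 15.6, 11.03 and 15.4 in dpy-21 replicates 6 to 10 and 121, 102, 109, 96.1 and 118 in daf-12 replicates 6 to 10. No daf-12 library came near any dpy-21 library, and the difference was -3.04 ± 0.22 (log2, SE; adjusted p = 4.884e-05, limma). The eak-7;akt-1 and wild type means were 22.2 and 22.3, so the daf-12 animals stood out as high at this locus, and F48D6.4 was called above wild type in daf-12 animals and below it in dpy-21 animals.

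The largest X-linked rise was at a locus that merged C35C5.8 and C35C5.9 (X:11533593-11537124), whose counts cannot be assigned to either gene. It had 59.4, 47.6, 78.7, 49.0 and 60.3 scaled counts in the dpy-21 libraries and 12.6, 11.3, 16.4, 15.8 and 22.04 in the daf-12 libraries, a difference of 1.86 ± 0.21 (log2, SE; adjusted p = 0.00053, limma). At the merged locus of T23F2.3 and T23F2.4 (X:5511997-5515084) the values were 67.1, 64.9, 80.3, 74.7 and 66.9 against 30.2, 32.8, 23.6, 20.1 and 31.6, a difference of 1.34 ± 0.16 (adjusted p = 0.00083). Every dpy-21 library was above 2 times the mean of the daf-12 libraries at both loci.

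C18A11.2 (X:8067568-8068097) had 142, 100.4, 107, 129.9 and 116 scaled counts in the dpy-21 libraries and 87.1, 44.1, 52.4, 67.6 and 50.8 in the daf-12 libraries (0.999 ± 0.19 on the log2 scale, adjusted p = 0.015, limma). The gene snet-1 (X:3668086-3668942) encodes a neuropeptide-like secreted protein, and it had 26.4, 34.6, 33.6, 35.5 and 38.8 scaled counts against 22.5, 15.9, 18.5, 21.1 and 17.3 (0.80 ± 0.16, adjusted p = 0.019). Groups did not overlap for either gene. The gene cnc-8 (X:10306595-10306951), a caenacin of the antimicrobial peptide families, had 104.6, 97.0, 107, 76.0 and 117 against 71.6, 69.4, 61.6, 53.9 and 60.4 (0.64 ± 0.14, adjusted p = 0.028). The lowest dpy-21 value of cnc-8, in replicate 9, was only just above the highest daf-12 value.

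The other 3 X-linked loci called higher had lower counts. The gene trap-2, for a subunit of the translocon-associated complex of the endoplasmic reticulum, had a mean of 10.9 ± 2.37 (SD, n = 5) in dpy-21 and 4.24 ± 1.83 in daf-12 animals. F13C5.5 had 5.22 ± 1.32 against 1.85 ± 0.93, the latter from at most 3 fragments a library. The locus of F38B2.3, F38B2.4 and inx-2, the last of which encodes an innexin of gap junctions, had 28.96 ± 2.36 against 16.7 ± 4.51. It fell outside the rule for named loci and is given to complete the count. F13C5.5 stayed called in 1 of the 10 fits that left out a library, trap-2 and the inx-2 locus in 2, and cnc-8 in 3, whereas F48D6.4, snet-1, C18A11.2 and both merged loci stayed called in all 10. Calls at trap-2, F13C5.5 and the inx-2 locus were also lost without the 3 libraries that lay apart.

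A group of unnamed loci behaved like the X-linked loci or more so. Of 100 tested loci with no gene name, 21 stood after the last X-linked locus of the table, which lists loci by chromosome, and their median difference was 0.87 with 17 of 21 above 0. All 5 called loci among them were higher in the dpy-21 libraries, and XLOC_037530 led with 36.3, 19.1, 22.1, 17.2 and 20.8 against 6.32, 4.69, 4.11, 2.11 and 3.83 scaled counts (2.21 ± 0.28 on the log2 scale, adjusted p = 0.0011, limma). The 79 unnamed loci elsewhere in the table had a median of 0.01, and their 5 called loci were all lower. Called loci were 23.8% of the 21 and 6.33% of the 79, the latter near the 5.00% of all loci. Counting the first group as X-linked, an alternative chosen after seeing the data, would raise the called X-linked loci from 9 to 14.

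**Figure D3:**
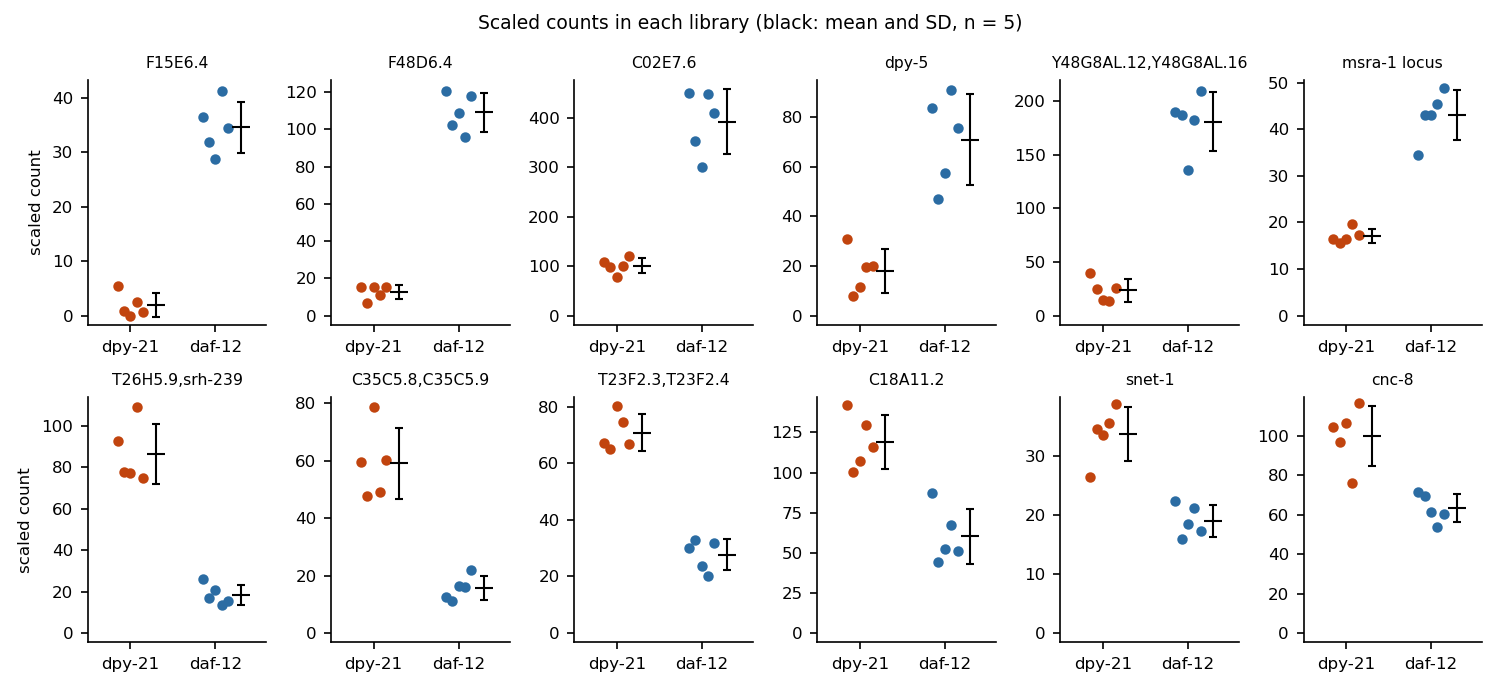
Scaled counts of 12 called loci in each of the 5 dpy-21 libraries (orange) and 5 daf-12 libraries (blue), with the mean and SD in black and linear axes. The upper row shows loci that were lower in the dpy-21 libraries and the lower row loci that were higher, and at all 12 loci the groups do not overlap.

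Of the 33 loci lower in the dpy-21 libraries, 27 were autosomal. The largest fall was at F15E6.4 (IV:4291474-4291875), with 5.50, 0.87, 0, 2.45 and 0.67 scaled counts in dpy-21 replicates 6 to 10 and 36.5, 31.9, 28.8, 41.2 and 34.5 in daf-12 replicates 6 to 10. The groups were far apart and the difference was -3.92 ± 0.45 (log2, SE; adjusted p = 0.00053, limma). Its neighbour dct-7, named for genes controlled by DAF-16 that affect germline tumours, starts within 2 kb on chromosome IV and had 4.402, 0, 0.82, 0 and 0 against 2.81, 11.3, 10.3, 12.7 and 12.5. The difference at dct-7 was -2.65 (adjusted p = 0.021), but its groups overlapped and it fell outside the rule for named loci.

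A cluster on chromosome V gave 3 called loci within 8 kb. C02E7.6 (V:4919207-4919591) was the most abundant, with 108, 97.8, 77.8, 100.5 and 120.5 scaled counts in the dpy-21 libraries against 450, 353, 299.8, 449 and 409 in the daf-12 libraries (-1.95 ± 0.15 on the log2 scale, adjusted p = 6.615e-05, limma). C02E7.7, which ends 633 bases from it, had 25.3, 52.0, 27.04, 49.0 and 53.6 against 134, 150, 104, 172 and 185 (-1.87 ± 0.26, adjusted p = 0.0018). The merged locus of H23N18.5 and H23N18.6 had 33.02, 14.7, 13.9, 15.9 and 24.1 against 112, 105, 70.8, 140.4 and 116 (-2.41 ± 0.27, adjusted p = 0.00053). At each of the 3 loci every daf-12 library was above every dpy-21 library, and each stayed called in all 24 alternatives that were tested.

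Neighbours moved together elsewhere too. Pairs of called loci less than 20 kb apart were R12E2.14 with R12E2.15 on chromosome I, T01B7.13 with rol-6 on chromosome II, both lower, and C08E3.1 with C08E3.13 on chromosome II and C01G10.5 with C01G10.15 on chromosome V, both higher. No such pair was of opposite direction. Counts at neighbours can share reads where transcripts overlap, which was not tested.

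Other falls were at the merged locus of Y48G8AL.12 and Y48G8AL.16 on chromosome I, with 39.6, 25.1, 14.8, 13.5 and 26.1 scaled counts against 189.5, 187.5, 136, 183 and 209.9 (-2.97 ± 0.27 on the log2 scale, adjusted p = 0.00015, limma). Lower means were seen at T01B7.13 with T01B7.5 (2.75 ± 0.73 against 15.3 ± 4.53, SD, n = 5), at M03A1.8 with dao-2 (1.30 ± 1.24 against 7.80 ± 2.48), at W02F12.2 with W02F12.8 (3.02 ± 2.78 against 11.9 ± 4.26), at Y52B11B.1 (3.28 ± 1.23 against 12.97 ± 3.78) and at F43G6.16 (0.82 ± 0.51 against 8.67 ± 3.76). The gene dao-2 was named for transcripts overexpressed in dauers or with ageing, and its reads could not be told from those of M03A1.8. Of these 6 loci only W02F12.2 with W02F12.8 had overlapping groups. Its call was kept in 2 of the 10 fits that left out a library, whereas the others were kept in all 10. F43G6.16 had at most 3 fragments in any dpy-21 library.

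Cuticle collagens had a median difference below that of all loci, and those called were lower in the dpy-21 libraries. The cuticle is rebuilt at each moult from collagens made by the hypodermis. Of 13 collagen loci tested, 6 of which merge several genes, 3 were called lower (23.1%, against 3.0% of all loci) and 0 higher. A difference below 0 was seen at 12 of the 13 (92.3%, against 63.2% of all loci), and the median was -1.24, against -0.17 over all loci. The 12 include col-36, which passed the filter only through other genotypes. Its means were 0.13 scaled counts in dpy-21 and 0.35 in daf-12 animals, too few for its direction to count. An unadjusted p below 0.05 was reached by 8 of the 13 (61.5%, against 18.4% of all loci). The median of the list was -1.14 with median-of-ratios scaling and -1.16 with TMM scaling, where the medians of all loci were -0.07 and -0.04.

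Of the called collagens the smallest p was that of dpy-5 (I:5432197-5433051), a cuticle procollagen whose loss gives short, stout animals. It had 30.8, 7.79, 11.5, 19.6 and 20.1 scaled counts in dpy-21 replicates 6 to 10 and 83.5, 46.9, 57.5, 90.8 and 75.7 in daf-12 replicates 6 to 10. The groups did not overlap, and the difference was -2.02 ± 0.34 (log2, SE; adjusted p = 0.0079, limma). A locus that merged sqt-3 with 4 other genes had 4.402, 0.87, 1.64, 1.23 and 1.34 against 11.23, 4.69, 6.16, 8.45 and 7.67 (-1.64 ± 0.34, adjusted p = 0.021), and rol-6 had 1.10, 1.73, 0.82, 1.23 and 0.67 against 6.32, 2.81, 4.11, 3.17 and 3.83 (-1.24 ± 0.26, adjusted p = 0.023). Mutations of sqt-3 and rol-6 change body shape, and both loci rested on few fragments. The 2 loci stayed called in 4 and 5 of the 10 fits without a library, and dpy-5 in all 10. The call at rol-6 was lost with edgeR (adjusted p = 0.051) and DESeq2 (adjusted p = 0.13) on fragments. The most abundant collagen loci showed smaller differences that were not called. A locus that merges F29B9.11, col-111 and mrps-21, a mitochondrial ribosomal protein, had 538 ± 71.9 against 643 ± 63.7 scaled counts (SD, n = 5; limma adjusted p = 0.27), and col-154 had 41.1 ± 23.3 against 52.6 ± 17.8 (adjusted p = 0.64). Among the other collagens not called, col-17 had 2.83 ± 3.53 against 10.0 ± 3.29 (SD, n = 5; adjusted p = 0.10), col-73 had 1.30 ± 1.56 against 7.12 ± 3.78 (adjusted p = 0.054) and col-160, the 1 locus above 0, had 1.91 ± 1.49 against 0.97 ± 1.18.

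The summed level of 10 hypodermis markers was 5.20 to 15.9 scaled counts in the dpy-21 libraries and 22.5 to 40.7 in the daf-12 libraries, and these ranges did not overlap. Of these markers 8 belong to the collagen list as well, 5 were above 3 fragments in some library, and col-14 was at 0. Summed markers of body wall muscle were 64.1 to 90.3 against 40.0 to 70.0, those of pharynx 7.70 to 15.6 against 5.75 to 10.3, and those of intestine 136 to 489 against 143 to 523. The 3 body wall muscle markers that passed the filter, mlc-2 and the merged loci of tnt-2 and unc-27, are all X-linked. Most of the muscle sum came from the tnt-2 locus, with means of 62.7 scaled counts in dpy-21 and 44.5 in daf-12 animals. In whole animals, fewer cells of a type and less RNA in each cell cannot be told apart, and the part of cell makeup or of progress through the moulting cycle in the collagen difference was not tested.

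**Figure D4:**
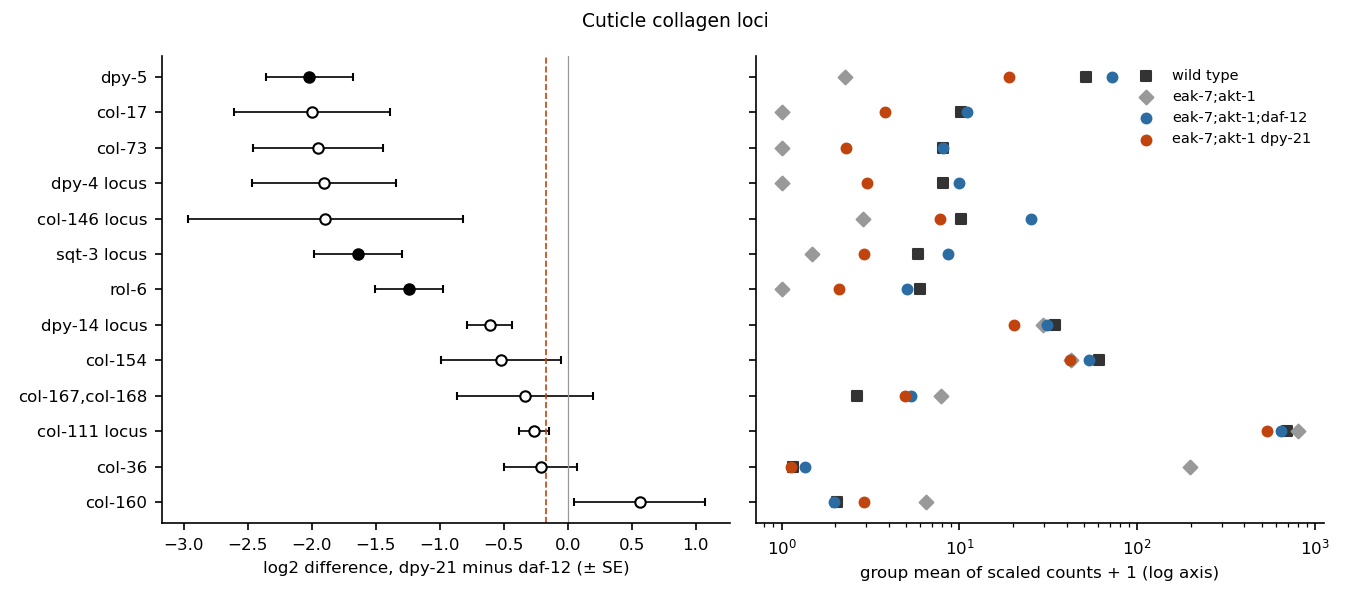
The 13 cuticle collagen loci. Left, log2 difference, dpy-21 minus daf-12, with its SE, where filled points are called loci and the dashed line is the median of all tested loci (-0.17). Right, group means of scaled counts plus 1 on a log axis in 4 genotypes. Of the 13 loci 12 lie left of 0, and at 8 of these 12 the dpy-21 mean lies between those of eak-7;akt-1 and wild type.

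The other genotypes place these differences. They are given as a description, since the loci were chosen for differing between the mutants and all contrasts share libraries. In a fit over all 35 libraries, 88 loci (7.99%) differed between dpy-21 animals and wild type and 12 (1.09%) between daf-12 animals and wild type, while 135 (12.3%) and 110 (9.99%) differed from eak-7;akt-1. Of the 33 loci lower in dpy-21 than in daf-12 animals, all 33 had a dpy-21 mean below wild type, and 17 were called so. The daf-12 mean was above wild type at 27, called at 2, and it was the highest of the 7 genotypes at 20.

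Among these 33 loci, 15 were called higher in wild type than in eak-7;akt-1. All 15 were also called higher in daf-12 animals than in eak-7;akt-1, and 9 were called higher in dpy-21 animals, where the mean fell between eak-7;akt-1 and wild type at 13. C02E7.6 had means of 7.10 in eak-7;akt-1, 19.02 and 10.8 in the set-4(n4600) and set-4(dp268) animals, 101 in dpy-21, 205 in daf-16, 236 in wild type and 392 in daf-12 animals. For dpy-5 the means were 1.27 in eak-7;akt-1, 17.95 in dpy-21, 48.1 in daf-16, 50.2 in wild type and 70.9 in daf-12 animals. The pair R12E2.14 and R12E2.15 had means of 2.82 and 1.03 in eak-7;akt-1, 70.0 and 19.5 in dpy-21, 130.4 and 40.98 in daf-12 and 210.5 and 52.6 in wild type. At these loci the dpy-21 level was intermediate, and the daf-12 level was above wild type at C02E7.6 and dpy-5 and below it at the R12E2 pair. The R12E2 calls between the mutants were not stable, since R12E2.14 stayed called in 3 and R12E2.15, whose groups overlapped, in 2 of the 10 fits without a library.

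A smaller set of 4 loci had the opposite relation, with wild type called below eak-7;akt-1. Their dpy-21 means were also below wild type, called at dct-16 and XLOC_025424. The gene dct-16, which like dct-7 was named for DAF-16-controlled genes, had 69.3, 103, 84.4, 55.1 and 122 scaled counts in dpy-21 and 308, 202, 247, 265 and 279.9 in daf-12 replicates 6 to 10 (-1.62 on the log2 scale, adjusted p = 0.0014, limma), beside a wild type mean of 199 and an eak-7;akt-1 mean of 334. The merged locus of F43E2.11, F43E2.6 and msra-1, the last of which encodes a methionine sulfoxide reductase, had 16.5, 15.6, 16.4, 19.6 and 17.4 against 34.4, 43.1, 43.1, 45.4 and 48.9 (-1.28, adjusted p = 0.00053). Its eak-7;akt-1 mean was 61.7 and its wild type mean 28.1. The remaining loci of this set were XLOC_025424 and Y38E10A.24. The set was formed after its values were seen.

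**Figure D5:**
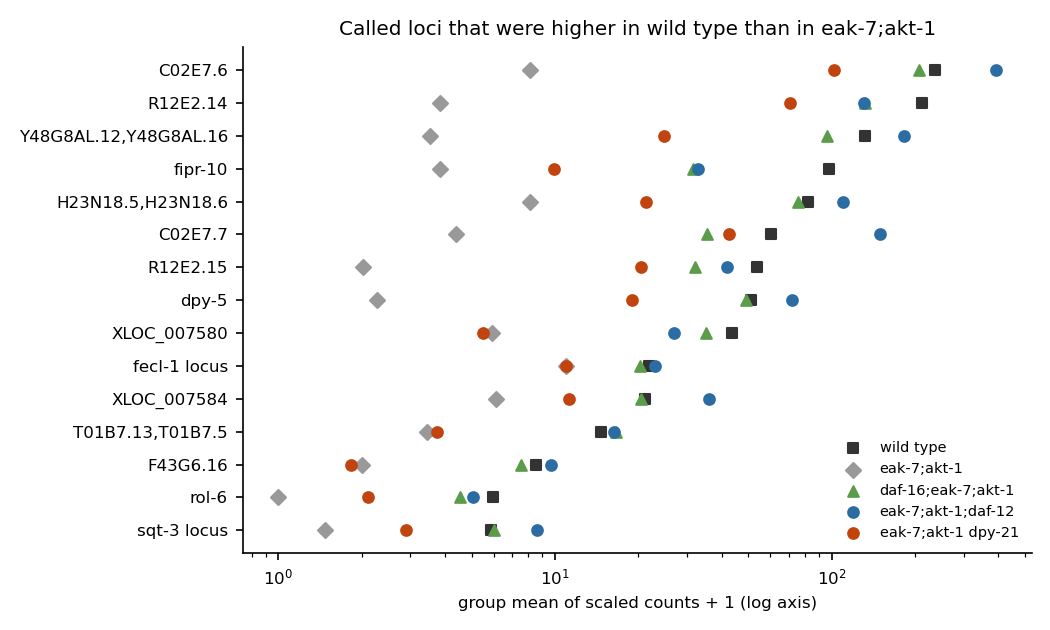
Group means of scaled counts plus 1, on a log axis, for the 15 loci that were lower in dpy-21 than in daf-12 animals and higher in wild type than in eak-7;akt-1. Points are genotypes. At 13 of the 15 the dpy-21 point lies between eak-7;akt-1 and wild type.

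The collagens followed the first of these patterns in part. Of the 13 collagen loci, 9 had a lower mean in eak-7;akt-1 than in wild type, and col-17, col-73, rol-6 and the dpy-4 locus were listed at 0 in all 5 eak-7;akt-1 libraries. At 8 of the 13 the daf-12 mean was above wild type. The collagen col-36 ran the other way, with means of 195.9 in eak-7;akt-1, 296.5 and 189 in the set-4(n4600) and set-4(dp268) animals and under 1 in the wild type, daf-16, daf-12 and dpy-21 animals. Its spread was wide, from 6.91 to 833 in eak-7;akt-1, where the mean without replicate 9 was 36.5, and from 0 to 577 in set-4(n4600) animals. No difference between the mutants was detectable there at this depth, with at most 3 fragments in any of their libraries.

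Of the 22 loci higher in dpy-21 than in daf-12 animals, 21 had a dpy-21 mean above wild type, 12 of them called, and at 12 the dpy-21 mean was the highest of the 7 genotypes. The daf-12 mean was below wild type at 14, called at 2. At all 8 X-linked loci among them the dpy-21 mean was above wild type, called at 6. The eak-7;akt-1 mean was above wild type at all 8 as well. Against eak-7;akt-1, dpy-21 animals were called higher at 6 of the 22 loci and at 2 of the 8 X-linked loci. The daf-12 animals were called lower than eak-7;akt-1 at 7 of the 22 and at 4 of the 8. At cnc-8 and trap-2 the eak-7;akt-1 means of 122.6 and 13.99 exceeded the dpy-21 means of 100.1 and 10.9. The merged locus of T23F2.3 and T23F2.4 had means of 21.03 in wild type, 42.6 in eak-7;akt-1, 27.7 in daf-12 and 70.8 in dpy-21 animals, and C18A11.2 had 51.3, 71.2, 60.4 and 119 in the same order.

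The autosomal loci higher in dpy-21 animals were led by a merged locus of T26H5.9 and srh-239 (V:15444916-15447381), the latter a predicted seven-transmembrane chemoreceptor of nematodes. It had 92.5, 77.9, 77.0, 109 and 74.98 scaled counts in the dpy-21 libraries and 25.97, 16.9, 20.53, 13.7 and 15.3 in the daf-12 libraries, a difference of 2.18 ± 0.19 (log2, SE; adjusted p = 0.00013, limma). The groups were well apart, and the means in the other genotypes ran from 11.8 in daf-16 animals to 43.7 in set-4(dp268) animals. Which gene of the pair gave the reads is uncertain, and 3 other chemoreceptor loci that passed the filter were not called.

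C08E3.13 and C08E3.1 on chromosome II had 113 ± 27.4 against 59.9 ± 5.59 and 20.9 ± 7.58 against 8.03 ± 2.97 scaled counts (SD, n = 5). ZC15.11 had 7.38 ± 2.32 against 2.34 ± 0.43, C01G10.5 had 4.11 ± 2.07 against 0.72 ± 0.79, and the merged locus of 21ur-2137 and vamp-8, a vesicle SNARE, had 17.3 ± 3.32 against 9.16 ± 2.13. The groups did not overlap at any of these 5 loci. At the merged locus of T28A11.3 and T28A11.4 the dpy-21 libraries had 0.67 to 2.201 scaled counts and all 5 daf-12 libraries 0, which is at most 3 fragments on either side. It was called by the fit, but no fold change is given. C01G10.5 stayed called in 2 of the 10 fits without a library, C08E3.1 in 1 and the vamp-8 locus in 0, whereas C08E3.13, ZC15.11 and the srh-239 locus stayed called in all 10.

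The other gene groups held at most 2 called loci each. Of 27 innate defence loci, cnc-8 was higher and fipr-10 lower, 7.41% against the 5.00% of all loci, with a list median of -0.26. The gene fipr-10, of a family related to fungus-induced peptides, had 7.70, 9.52, 7.37, 8.58 and 11.4 against 52.0, 21.6, 12.3, 42.2 and 31.6 scaled counts (-1.59 ± 0.35 on the log2 scale, adjusted p = 0.026, limma). Wild type had a mean of 96.7, and fipr-10 was called below wild type in both mutants. The difference between the mutants stayed called in 3 of the 10 fits without a library. Of 14 neuropeptide-like loci only snet-1 was called, higher, a share of 7.14% that is near that of all loci. The list median was -0.35, with 9 of the 14 below 0 (64.3%, against 63.2% of all loci). An unadjusted p below 0.05 was reached by 6 of the 14 (42.9%, against 18.4% of all loci). The merged locus of T19C4.1 and nlp-33 had 324 ± 34.3 against 483 ± 69.1 scaled counts (SD, n = 5) and missed the fold threshold (-0.57, adjusted p = 0.025). All 12 redox loci tested merge several genes, so no redox gene was measured by itself. Of these 12 loci 2 were lower (16.7%, against 3.0% of all loci), the msra-1 locus and a locus that merged figl-1, glrx-3 and hpo-18. The latter spans a microtubule-severing ATPase, a glutaredoxin and a subunit of the ATP synthase, and it had means of 89.3 and 136 scaled counts (-0.60, adjusted p = 0.020). Its call was lost with edgeR (adjusted p = 0.081) and, at a fold change under the threshold, with DESeq2.

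Genes of protein synthesis and turnover gave no calls. None of 43 loci with large-subunit and 29 with small-subunit ribosomal proteins was called by limma, where 5.00% of all loci were, and 1 of each was below an unadjusted p of 0.05, against 18.4% of all loci. Their medians were -0.08 and -0.09, and became 0.04 and 0.02 with median-of-ratios scaling, as the median of all loci moved. Among 19 proteasome and ubiquitin loci and 7 of translation factors 0 were called, with 1 and 2 below an unadjusted p of 0.05. The 8 sarcomere loci had a median of 0.29, with 6 above 0 and 0 called. The 6 include the X-linked loci of mlc-2, tnt-2 and unc-27, so this list shares loci with the X-linked shift. The list of enzymes, partners and targets of DAF-12 had 4 tested loci, each merging several genes, and 0 called, and no locus of the insulin pathway list and no flp neuropeptide gene passed the filter. Only 1 locus of the dosage compensation list passed, a merged locus that includes set-1, and it was not called (-0.66 on the log2 scale, adjusted p = 0.36).

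Insulin-like peptides include the ligands of DAF-2. Of 5 loci tested 0 were called by limma, a number too small to set against the 5.00% called over all loci, and 1, ins-12, was below an unadjusted p of 0.05, with 8.09 ± 2.60 scaled counts in dpy-21 and 14.9 ± 3.31 in daf-12 animals (SD, n = 5; adjusted p = 0.11). The values of ins-35 were 1.10, 77.9, 100.8, 1.23 and 109.8 in dpy-21 replicates 6 to 10 and 156, 1.88, 189.9, 178 and 212 in daf-12 replicates 6 to 10 (adjusted p = 0.60). The 3 values near 1 were those of the 3 libraries that lay apart on the first principal component, and in the other 7 libraries every dpy-21 value was below every daf-12 value. The values of daf-28 were 50.6, 55.4, 40.97, 0 and 58.9 against 47.7, 0, 28.8, 37.0 and 40.3 (adjusted p = 0.93), with zeros in 2 of the same 3 libraries. The gene ins-7 had 4.98 ± 4.01 against 2.04 ± 1.92 (adjusted p = 0.61), and the merged locus of ins-25, ins-27 and ins-29 had 52.6 ± 11.9 against 59.4 ± 8.43 (adjusted p = 0.64). The locus that merges ins-9 with ubc-22 had 1 fragment over the dpy-21 libraries and 0 over the daf-12 libraries (exact permutation test of fragments, two-sided p = 1), which does not allow a comparison at this depth. MTCE.34 with MTCE.35, on the mitochondrial genome, had 90.4 ± 21.7 against 101.8 ± 29.04 (adjusted p = 0.77).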

How the data were processed

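Libraries were polyA-selected from 100 ng total RNA of whole larvae. The values the authors deposited are a signal: at every locus, the fragments that CuffDiff counted over the size factor of that library. The submitters' processing notes name TopHat2 2.0.9, Bowtie2 2.1.0, Cuffdiff 2.1.1 and the WBcel235 build. Loci came from a reference transcriptome and de novo assembly, and 517 of the 1101 tested merge several genes, whose values are uncertain for each. Whole fragments were recovered by dividing by the value of 1 fragment, and 100% of values of the 10 libraries came out whole within 0.1 fragments. Floors reflect counting error alone, as reads had no molecular identifiers. A floor was set at 3 fragments per library.

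Values entered the comparison as log2(scaled count + 1). The 10 libraries alone were fitted in limma 3.58.1 (R 4.3.3), the variance trend was modelled, and p-values were adjusted by Benjamini-Hochberg over the 1101 loci. SEs and adjusted p-values come from this fit. Other genotypes came from 1 fit over 35 libraries. On recovered fragments edgeR 4.0.16 and DESeq2 1.42.0 served as alternatives. The test was also tried on simulated counts in which no libraries lay apart, unlike these data, and no result given here rests on that trial. Python 3.11.15 (scipy 1.17.1, pandas 2.3.3, numpy 2.4.6) made the tables. Chromosomes and coordinates were looked up by gene name in the WBcel235 annotation (Ensembl), as the table holds none, and merged loci span all their genes. Named loci were the 12 largest rises and 12 largest falls with a gene name and 1 direction in all 5 same-numbered replicates, up to 3 called loci of each gene list, the 5 X-linked loci with the smallest p, and the tested insulin-like peptides and genes the study discusses. The groups, gene lists, rules and tests were chosen with earlier results of these data known. The study describes the 5 libraries of each genotype as biological replicates, each from pooled progeny. Sequences were not used here.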

Additional observations from a re-analysis of the deposited data

Results flagged for a closer look

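The highest and lowest library of each group were compared with the rest at 37 named loci, in 74 groups of 5, and 4 stood apart by Dixon's criterion, which chance meets in about 1 in 20 groups. At T01B7.13,T01B7.5 dpy-21 replicate 10 was highest at 4.02 scaled counts, where the next library had 2.60. At the merged sqt-3 locus dpy-21 replicate 6 was highest at 4.402, and the next had 1.64. At C08E3.13 daf-12 replicate 8 was lowest at 50.3, and the next had 60.4. In none of these 3 did the library reach the values of the other genotype. At ins-35 daf-12 replicate 7 was lowest at 1.88, where the next library had 156. This library was 1 of the 3 that lay apart on the first principal component, and the other 2, dpy-21 replicates 6 and 9, had 1.10 and 1.23.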

How the results depend on the processing

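None of the 55 calls changed sign in any alternative. Setting aside the higher fold threshold, 19 stayed called in all 24 alternatives and 30 in all 10 fits that left out a library. Called loci numbered 24 with the replicate number as a block (8 higher, 16 lower and 4 X-linked, with 22 of the 24 among the 55), 48 with edgeR (26 higher, 22 lower) and 61 with DESeq2 (28 and 33). Same-numbered libraries did not deviate together, with correlations from -0.50 to 0.37, so the numbers were not taken as pairs in the fit. The rule for the largest named rises and falls did compare same-numbered libraries. It left out the called dct-7 and the called merged locus of Y102A5C.35 and Y102A5C.36, which lacked 1 direction in all 5. Leaving out 1 library gave 34 to 55 called loci, 13 to 19 higher, 19 to 39 lower and 5 to 9 X-linked. The total was 34 without daf-12 replicate 9 or 10, 35 without dpy-21 replicate 8 and 36 without daf-12 replicate 8. Higher loci numbered 13 without daf-12 or dpy-21 replicate 8 and 14 without daf-12 replicate 9 or dpy-21 replicate 10, lower loci 19, 20 and 21 without daf-12 replicates 10 and 9 and dpy-21 replicate 7, and X-linked loci 5 without daf-12 replicate 8 or dpy-21 replicate 6, 8 or 10. Without the 3 libraries that lay apart 51 loci were lower. Called X-linked loci numbered 5 with no filter on low values, 5 at a fold change of at least 2, 14 with TMM scaling and 14 with the unnamed loci after the last X-linked locus. The gap between X-linked and autosomal medians was 0.35 with a pseudocount of 5, 0.21 with no filter, 0.65 with edgeR and 0.67 with DESeq2, and 0.49 to 0.60 without 1 library. MTCE.34,MTCE.35, which was not called, changed sign to 0.0047 with TMM scaling, and daf-28, not called either, ranged from -0.72 without daf-12 replicate 7 to 1.48 without dpy-21 replicate 9. The causes were not tested. At this depth only 1101 of the 6365 loci above 0 passed the filter.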
